A study of Mus musculus with 9 samples.

Results

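The Bcl2 family genes described here are 10 mouse genes whose proteins keep the mitochondrial outer membrane sealed or open it in apoptosis. They were chosen by name from a table of 26146 genes, and all 10 were found. They comprise 5 survival genes (Bcl2a1b, Bcl2a1d, Bcl2l1, Bcl2 and Mcl1), the pore-forming death genes Bax and Bak1, and 3 genes of BH3-only proteins (Bcl2l11, Bid and Pmaip1). Their transcripts were counted by sequencing poly(A) RNA from RAW264.7, a macrophage line of the mouse, in 9 libraries.

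There were 3 M libraries, 3 ET libraries and 3 Normal libraries. Normal cells were untreated. The M and ET cells all received lipopolysaccharide (LPS), a bacterial cell wall component that macrophages sense through Toll-like receptor 4, and 1 of these groups also received a Traditional Chinese Medicine extract. The labels disagree on which. Samples titled LPS+Extract name the M columns of the table but carry ET as their library name, and samples titled LPS name the ET columns but carry M. Read by columns, the M cells had the extract beside LPS and the ET cells had LPS alone. Read by library names, the ET cells had the extract and the M cells did not. Plant, dose and exposure time are not stated in the labels used here. Since the labels do not say that replicates were separate cultures, p-values measure the spread between these libraries, which may be technical.

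Proteins of this family meet at the outer mitochondrial membrane. Bax and Bak form pores there that release cytochrome c, which builds the apoptosome and activates caspases. Survival proteins such as Bcl-2, Bcl-xL, Mcl-1 and A1 hold Bax and Bak in check, and BH3-only proteins such as Bim, Bid and Noxa relieve that block or activate the pore formers directly. Mcl-1 and A1 are short-lived proteins, and A1 is a known target gene of NF-kB in myeloid cells.

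Total counts lay between 57796361 and 60881764 in M, between 55039858 and 62962615 in ET and between 56921531 and 76242718 in Normal. Of 7 macrophage markers, 6 stood above 1 FPKM (fragments per kilobase of transcript, scaled to the library's total fragments) in every library. The exception was Mertk. The summed level of the 7 was 1385 to 1407 FPKM in M, 1534 to 1626 FPKM in ET and 1770.2 to 1886 FPKM in Normal. Within that sum Lyz2, Csf1r and Spi1 were lower in every treated library than in every Normal library, while Adgre1, Itgam and Cd68 were higher. Lyz2, the most abundant, averaged 550.4 FPKM in M, 669 FPKM in ET and 995 FPKM in Normal, and Adgre1 averaged 59.0 FPKM in M, 55.2 FPKM in ET and 15.4 FPKM in Normal. Listed markers of T, epithelial, endothelial and erythroid cells summed to under 1 FPKM in every library, and B cell markers to 0.602 to 0.729 FPKM in M, 0.627 to 1.45 FPKM in ET and 0 to 0.268 FPKM in Normal. Summed granulocyte markers reached 41.4 to 47.5 FPKM in M and 37.7 to 46.9 FPKM in ET, against 0 to 0.129 FPKM in Normal, nearly all of it S100a8, which activated macrophages also express, while Elane and Mpo stayed under 1 FPKM. Fibroblast markers summed to 3.72 to 5.61 FPKM in M and 2.89 to 3.29 FPKM in ET, against 0.0234 to 0.0273 FPKM in Normal, nearly all of it Lum, with the collagen genes Col1a1 and Col1a2 near 0. The part of these genes in the results was not tested. Tnf, Il1b, Nos2 and Nfkbia, genes of the LPS response, summed to 812 to 853 FPKM in M, 713 to 770.3 FPKM in ET and 96.6 to 105 FPKM in Normal. ET replicate 3 stood apart from ET replicates 1 and 2, with a chi-square per gene of 26.2 and 21.4 against them and 14.5 between those 2. Member results and gene list counts in M against ET that change without it are given both ways.

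A gene is called here where its adjusted p in edgeR's quasi-likelihood test was under 0.05 over all 11536 genes tested, which were those with at least 1 FPKM in at least 3 of the 9 libraries. All 10 Bcl2 family genes were tested. Of these, 9 had at least 1 FPKM in all 9 libraries. Bcl2 did in 4, namely the 3 Normal libraries and M replicate 2. It thus passed the filter only with the help of Normal, where it is highest. The fall of Bcl2 is among the counts below and is given as no support for them. The members were chosen with earlier results of these data known. Counts of members called are therefore descriptions, and the shares of all genes beside them make no test of the family. In M against Normal, 9 of 10 were called higher and none lower, where 35.5% of all genes tested were called higher and 34.5% lower. No member was lower in M than in Normal at an unadjusted edgeR p under 0.05, by DESeq2 or by limma either. In ET against Normal, 9 were higher and 1, Bcl2, was lower, against 35% and 35.2% of all genes. With the mean of M and ET set against Normal the counts were again 9 higher and 1 lower, against 36.8% and 36.8% of all genes. In M against ET, 3 were higher and none lower, against 4.97% and 4.12% of all genes. Lower in M than in ET were 2 members at an unadjusted edgeR p under 0.05, 2 by DESeq2 and 0 by limma. Of all 11536 genes, DESeq2 called 787 lower there and limma 473, and the share at an unadjusted p was not counted. The comparisons of M and of ET with Normal share the Normal libraries. The median log2 fold change of the 10 genes was 0.54 in M against Normal, 0.65 in ET against Normal and 0.05 in M against ET. The medians over all genes tested were -0.01, -0.02 and 0.00. In bulk RNA a change in transcripts per cell and a change in the make-up of the cells cannot be told apart.

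**Figure D1:**
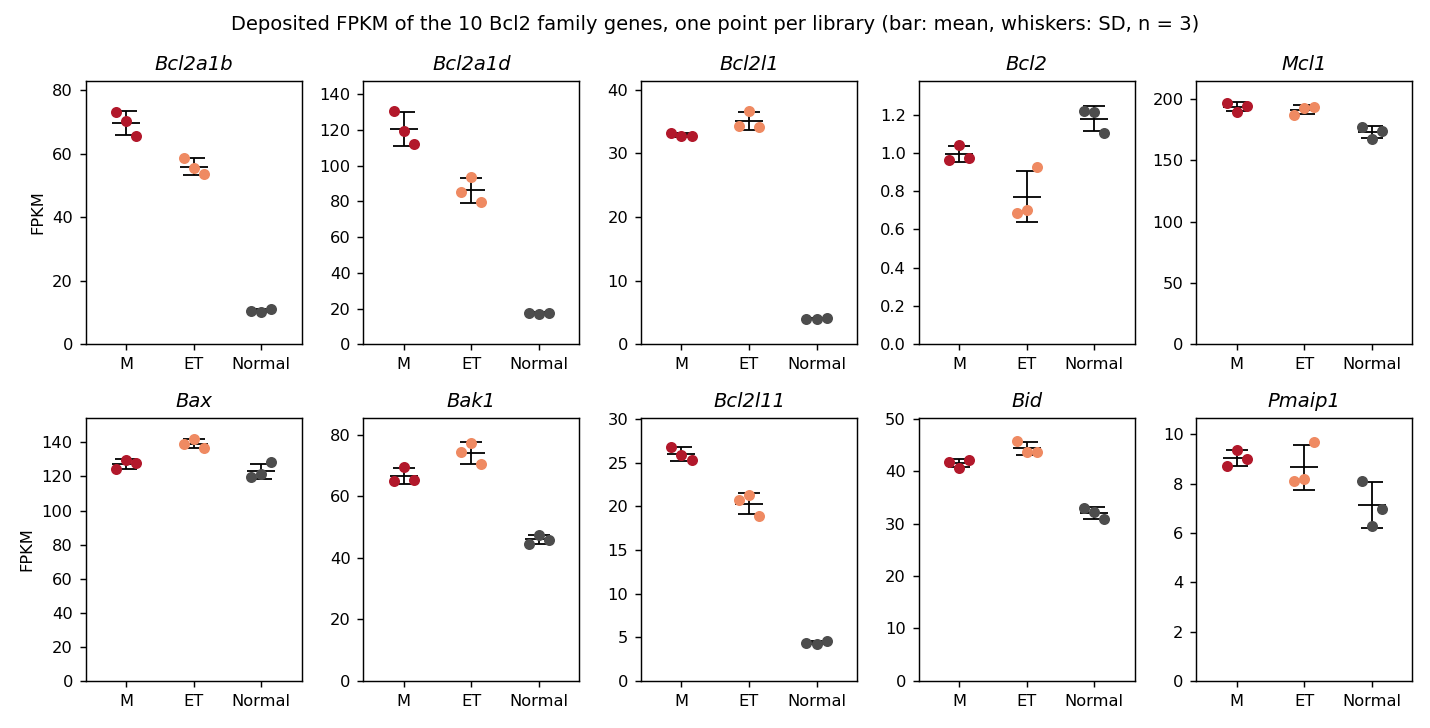
FPKM of the 10 Bcl2 family genes on the vertical axes, which start at 0, with 1 point per library and the M, ET and Normal groups side by side. Bars mark group means and whiskers the SD of 3 libraries. Bcl2a1b, Bcl2a1d, Bcl2l1 and Bcl2l11 in M and ET sit far above Normal, Bcl2 lies below Normal, and the other 5 genes differ by smaller steps.

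The largest rises among survival genes were those of the A1 gene copies and of Bcl2l1. Mouse A1 is encoded by nearly identical gene copies on chromosome 9, of which Bcl2a1b (ENSMUSG00000089929, 89199209 to 89207827, plus strand, GRCm38) and Bcl2a1d (ENSMUSG00000099974, 88723285 to 88731914, minus strand) are members here. Bcl2a1a, a further copy, is given beside them because reads can be shared among the copies. Their coding sequences have 516 bases before the stop codon. The opening 120 bases are shown because the few letters that separate the copies decide which copy a fragment is counted for. Capitals mark the positions, counted from 1 at the start codon's A, at which the 3 copies are not all alike.
Bcl2a1b: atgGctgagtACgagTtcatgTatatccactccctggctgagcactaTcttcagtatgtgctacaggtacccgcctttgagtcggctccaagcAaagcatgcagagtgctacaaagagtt
Bcl2a1d: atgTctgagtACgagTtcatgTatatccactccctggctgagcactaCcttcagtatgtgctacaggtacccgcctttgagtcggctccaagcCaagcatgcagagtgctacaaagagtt
Bcl2a1a: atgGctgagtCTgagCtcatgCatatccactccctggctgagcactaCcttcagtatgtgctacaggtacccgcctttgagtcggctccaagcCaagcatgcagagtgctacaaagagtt
Over the whole coding sequence Bcl2a1d differed from Bcl2a1b at 6 positions (G4T, T48C, A94C, G312A, C381G and T490A, with the Bcl2a1b base first), and Bcl2a1a differed from it at 11. The transcripts matched Bcl2a1b over 99.1% of aligned bases for Bcl2a1d and 98.2% for Bcl2a1a. Among stretches of 300 bases, close to the stated insert size, 100% of those in Bcl2a1b, 97.3% in Bcl2a1d and 97.1% in Bcl2a1a did not occur in the other 2 copies. A fragment of that length therefore carries at least 1 distinguishing base in nearly every position, but the sources used here do not say how multiply matching reads were counted, and the split among copies is uncertain. The read-through gene Gm29094 overlaps Bcl2a1b on the same strand over 8449 bases, and 80.1% of the Bcl2a1b stretches were absent from it too. Its own level was 3.40 to 4.54 FPKM in M, 2.40 to 4.36 FPKM in ET and 0 to 0.583 FPKM in Normal.

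Bcl2a1b stood at 73.2, 70.3 and 65.6 FPKM in M, at 58.7, 55.4 and 53.5 FPKM in ET and at 10.6, 10.1 and 11.1 FPKM in Normal. No 2 groups overlapped, and M was the highest. The log2 fold change was 2.80 in M against Normal (SE 0.0701, 6.98-fold, adjusted p = 1.94e-12) and 2.47 in ET against Normal (SE 0.0696, 5.55-fold, adjusted p = 6.24e-12). Bcl2a1d was the more abundant copy, at 131, 119.6 and 112 FPKM in M, 85.3, 93.5 and 79.9 FPKM in ET and 17.8, 17.0 and 17.8 FPKM in Normal. Its groups were apart in the same order. Bcl2a1d was 7.33-fold higher in M than in Normal (log2 2.87, SE 0.0722, adjusted p = 1.97e-12) and 5.19-fold higher in ET than in Normal (log2 2.38, SE 0.0714, adjusted p = 1.17e-11). Gm10634, antisense to Bcl2a1d, was at most 0.158 FPKM in any library.

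M also stood above ET for both copies. The log2 fold change of M over ET was 0.33 for Bcl2a1b (SE 0.0637, 1.26-fold, adjusted p = 0.00763) and 0.50 for Bcl2a1d (SE 0.0655, 1.41-fold, adjusted p = 0.000599). Bcl2a1a had a mean of 44.0 FPKM in M, 37.0 FPKM in ET and 1.89 FPKM in Normal. Its rise was the largest of the 3 copies, at a log2 fold change of 4.63 in M (SE 0.112, adjusted p = 1.39e-12) and 4.37 in ET (SE 0.112, adjusted p = 2.52e-12), while M over ET missed the threshold (0.26, SE 0.0886, adjusted p = 0.0855). The copies thus did not keep 1 ratio. There were 0.633 ± 0.0115 Bcl2a1a counts for each Bcl2a1b count in M, 0.665 ± 0.0405 in ET and 0.178 ± 0.0233 in Normal (SD, n = 3), whereas Bcl2a1d to Bcl2a1b stood at 1.83 ± 0.0515, 1.63 ± 0.133 and 1.74 ± 0.0491 in M, ET and Normal. With the counts of all copies summed into 1 feature, which does not depend on the split, the log2 fold change was 3.05 in M against Normal (SE 0.0628, 8.28-fold), 2.65 in ET against Normal (SE 0.0621, 6.26-fold) and 0.40 in M against ET (SE 0.0569, 1.32-fold, adjusted p = 0.00103). Bcl2a1c, the remaining copy of the family in the table, had 0 to 4 counts in any library.

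Bases around the start sites of the 3 copies are shown because all 3 copies rose in both treated groups. The windows run from 250 bases before to 50 bases after each RefSeq start site (GRCm38.p6), on the strand of the gene. Capitals mark the motif TGANTCA, the core bound by AP-1 factors, searched on both strands.
Bcl2a1d, chr9:88731801-88732100, minus strand: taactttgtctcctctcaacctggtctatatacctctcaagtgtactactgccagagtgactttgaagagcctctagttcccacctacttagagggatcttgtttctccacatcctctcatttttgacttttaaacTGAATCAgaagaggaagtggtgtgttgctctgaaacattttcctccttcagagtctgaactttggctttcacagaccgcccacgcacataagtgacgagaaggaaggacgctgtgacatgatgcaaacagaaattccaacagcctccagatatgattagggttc
Bcl2a1a, chr9:88956670-88956969, plus strand: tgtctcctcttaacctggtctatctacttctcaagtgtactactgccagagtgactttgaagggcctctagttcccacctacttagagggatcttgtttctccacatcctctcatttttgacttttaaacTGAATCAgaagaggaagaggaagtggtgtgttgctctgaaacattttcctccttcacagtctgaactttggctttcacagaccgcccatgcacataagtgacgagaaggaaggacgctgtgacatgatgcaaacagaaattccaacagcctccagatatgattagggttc
Bcl2a1b, chr9:89199023-89199322, plus strand: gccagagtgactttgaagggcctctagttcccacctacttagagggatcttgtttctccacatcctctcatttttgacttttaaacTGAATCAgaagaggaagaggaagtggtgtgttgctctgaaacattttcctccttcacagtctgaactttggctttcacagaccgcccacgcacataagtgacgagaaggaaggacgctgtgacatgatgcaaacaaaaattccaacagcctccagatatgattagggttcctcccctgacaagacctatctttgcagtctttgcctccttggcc
In aligned bases the Bcl2a1d window matched that of Bcl2a1b at 96.5%, and the Bcl2a1a window matched it at 99.2%. All 3 windows held the motif, at 114 bases before the start site in Bcl2a1d, 120 in Bcl2a1a and 164 in Bcl2a1b. Since the copies share their sequence, these are not independent matches. Its middle base is A in each copy, where the usual AP-1 site has C or G. The motif occurred in 7.81% of 32851 RefSeq windows of this length. A match is a string of letters and was not tested as a binding site. The κB-like motif GGNNTTTCC (5.82% of windows) and the interferon response motif GAAANNGAA (8.56%) had no match in these 3 windows.

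Bcl2l1, which encodes the survival protein Bcl-xL (ENSMUSG00000007659, chromosome 2, 152780668 to 152831728, minus strand), had the largest fold of the 10 genes. It stood at 33.2, 32.8 and 32.7 FPKM in M, at 34.3, 36.7 and 34.2 FPKM in ET and at 4.002, 3.93 and 4.14 FPKM in Normal. Every treated library was far above every Normal library, and ET was slightly above M. The log2 fold change was 3.12 in M (SE 0.0423, 8.67-fold, adjusted p = 1.20e-14) and 3.20 in ET (SE 0.0424, 9.17-fold, adjusted p = 1.11e-14). Between M and ET the difference missed the threshold, at -0.08 with a 95% interval of -0.16 to 0.00 (adjusted p = 0.208). Whether the M to ET difference of Bcl2l1 differs from that of Bcl2a1b and Bcl2a1d was not tested.

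RefSeq gives 3 start windows for Bcl2l1 and 2 for Bcl2l11. For each gene the window that held a motif is shown. Capitals mark GGNNTTTCC, the κB-like motif, in Bcl2l1, and TGTTTAC, the forkhead motif, in Bcl2l11.
Bcl2l1, chr2:152830668-152830967, minus strand: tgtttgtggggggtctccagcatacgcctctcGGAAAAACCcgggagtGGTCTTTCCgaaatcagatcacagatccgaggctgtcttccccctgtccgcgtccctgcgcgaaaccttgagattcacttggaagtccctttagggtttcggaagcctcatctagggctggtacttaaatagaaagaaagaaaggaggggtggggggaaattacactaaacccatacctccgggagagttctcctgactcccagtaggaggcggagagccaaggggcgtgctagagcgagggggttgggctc
Bcl2l11, chr2:128125788-128126087, plus strand: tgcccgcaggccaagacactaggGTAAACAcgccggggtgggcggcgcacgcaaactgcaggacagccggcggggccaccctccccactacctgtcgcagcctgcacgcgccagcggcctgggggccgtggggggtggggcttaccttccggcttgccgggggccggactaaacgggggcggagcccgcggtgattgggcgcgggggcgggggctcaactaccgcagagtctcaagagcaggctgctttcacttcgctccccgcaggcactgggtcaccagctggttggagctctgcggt
The Bcl2l1 window held the κB-like motif at 2 places, 218 and 202 bases before the start site, the upstream one on the opposite strand. Mcl1, whose level moved little, held it too, 28 bases before its start site. The forkhead motif of Bcl2l11 lay 227 bases before the start site on the opposite strand, and 3.65% of all windows held it. No interferon response motif was found in the 13 windows matched to the 9 members with a window and to Bcl2a1a.

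Mcl1 and Bcl2, the remaining survival genes, moved little or fell. Mcl1 (ENSMUSG00000038612, chromosome 3, 95658788 to 95663176), the short-lived survival factor on which many myeloid cells depend, was the most abundant of the 10 genes in every library. It stood at 197, 189.8 and 194 FPKM in M, 187, 193 and 194 FPKM in ET and 177, 168 and 174 FPKM in Normal. All treated libraries lay above all Normal libraries, but by small steps, with a log2 fold change of 0.25 in M (SE 0.0328, 1.19-fold, adjusted p = 1.93e-05) and 0.22 in ET (SE 0.0328, 1.17-fold, adjusted p = 5.44e-05). M and ET overlapped, and their difference was 0.03 with a 95% interval of -0.04 to 0.10 (adjusted p = 0.647).

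Bcl2 (ENSMUSG00000057329, chromosome 1, 106538178 to 106714274), the founding member of the family, was the least abundant of the 10 genes. It stood at 0.964, 1.04 and 0.974 FPKM in M, from 575, 590 and 564 counts. In ET it stood at 0.688, 0.701 and 0.924 FPKM, from 425, 378 and 550 counts, and in Normal at 1.22, 1.21 and 1.11 FPKM, from 738, 909 and 617 counts. The 3 groups did not overlap in FPKM, with Normal highest and ET lowest. In counts scaled as for the edgeR test, M replicate 2 lay slightly above Normal replicate 3. Bcl2 fell by 0.54 on the log2 scale in ET against Normal (SE 0.127, adjusted p = 0.00227). Since Bcl2 passed the filter through Normal, this fall is a description and no support for a pattern of the family. In M against Normal the value was -0.16 with a 95% interval of -0.43 to 0.12 (adjusted p = 0.276). The difference between M and ET was 0.38 (SE 0.128, 95% interval 0.10 to 0.65) and missed the threshold in the edgeR test (adjusted p = 0.0856), while DESeq2 called it (0.37, adjusted p = 0.0395). ET replicate 3, the library that stood apart, was the highest of its group for Bcl2, and without it the difference was 0.52 (adjusted p = 0.0107). The antisense gene D630008O14Rik overlaps Bcl2 and was not analysed here. Without a stated strand setting its reads cannot be told apart from those of Bcl2.

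The make-up of the transcripts of the 5 survival members differed between treated and untreated cells. Bcl2a1a, which averaged 44.0 FPKM in M, 37.0 FPKM in ET and 1.89 FPKM in Normal, is left out of the sum below. So is Bcl2l2, a further survival gene outside the members. The shares are those among the 5 alone. The 5 survival genes summed to 418 ± 15.5 FPKM in M, 369 ± 8.87 FPKM in ET and 206 ± 5.58 FPKM in Normal (SD, n = 3). Mcl1 held 46.4 ± 1.38% of that sum in M and 51.9 ± 1.43% in ET, against 83.9 ± 0.237% in Normal. Bcl2a1d held 28.9 ± 1.22% in M, 23.3 ± 1.30% in ET and 8.48 ± 0.0541% in Normal. Bcl2a1b held 16.7 ± 0.436%, 15.1 ± 0.777% and 5.14 ± 0.175% in the same order of groups. For Bcl2l1 the share was 7.88 ± 0.221% in M, 9.49 ± 0.155% in ET and 1.95 ± 0.0471% in Normal. Bcl2 held 0.238 ± 0.0155% in M, 0.209 ± 0.0397% in ET and 0.572 ± 0.0376% in Normal. Transcript shares say nothing of protein levels. There were 33.2 ± 1.55 FPKM of Bcl2l1 per FPKM of Bcl2 in M and 46.4 ± 8.25 in ET, against 3.42 ± 0.280 in Normal. These sums and ratios are descriptions and were not tested.

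**Figure D2:**
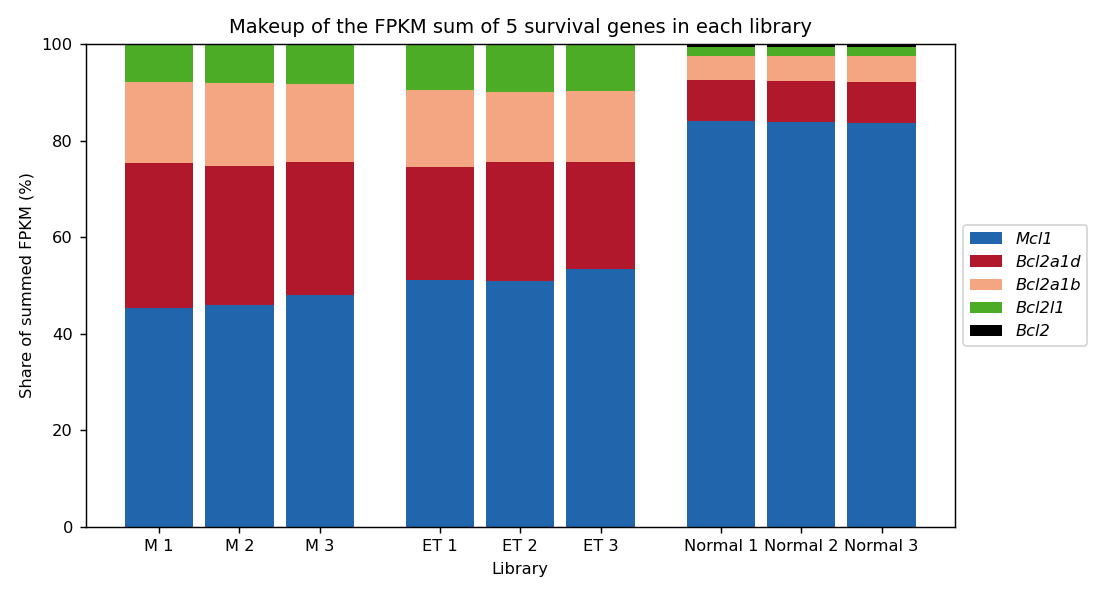
Share of the summed FPKM of 5 survival genes, in percent, as stacked bars with 1 bar per library, ordered M, ET and Normal. Mcl1 fills 45.3 to 47.9% of the bar in M and 50.9 to 53.5% in ET, against 83.6 to 84.1% in Normal, and the Bcl2a1 and Bcl2l1 segments take up the difference. Bcl2 is under 1% everywhere.

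Bax and Bak1, the pore formers, rose by less than the A1 genes and Bcl2l1. Bax (ENSMUSG00000003873, chromosome 7, 45461697 to 45466898) stood at 124, 129.97 and 128 FPKM in M, 139, 142 and 137 FPKM in ET and 119.7, 121 and 128 FPKM in Normal. ET lay above both other groups, and M overlapped Normal. The log2 fold change was 0.25 in ET against Normal (SE 0.0360, adjusted p = 3.92e-05). In M against Normal it was 0.14 (SE 0.0360, adjusted p = 0.00437), a call that ended when libraries were scaled by total counts alone (0.05, adjusted p = 0.284) and in limma on log2(FPKM + 1) (0.05, adjusted p = 0.213).

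Bak1 (ENSMUSG00000057789, chromosome 17, 27019810 to 27029009) stood at 64.8, 69.4 and 65.2 FPKM in M, 74.2, 77.3 and 70.3 FPKM in ET and 44.6, 47.5 and 45.7 FPKM in Normal. No groups overlapped, and ET was highest. The log2 fold change was 0.62 in M (SE 0.0440, 1.54-fold, adjusted p = 5.41e-08) and 0.76 in ET (SE 0.0440, 1.70-fold, adjusted p = 7.22e-09). Bak1 lies within Ggnbp1 on the opposite strand, which was at most 3.12 FPKM in any library. For both pore formers every M library lay below every ET library. The differences of M from ET were -0.12 for Bax (SE 0.0360, 95% interval -0.19 to -0.04, adjusted p = 0.0658) and -0.14 for Bak1 (SE 0.0437, 95% interval -0.24 to -0.05, adjusted p = 0.0635). In the edgeR test with TMM scaling both missed the threshold with all libraries and passed it without ET replicate 3 (-0.13 and -0.18, adjusted p = 0.0388 and 0.0133). Both passed with all libraries in DESeq2 (adjusted p = 0.0220 for Bax and 0.0208 for Bak1) and in edgeR with total counts as the scaling (adjusted p = 0.0463 and 0.0498).

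Bcl2 to Bax, a ratio often quoted for this family, was 0.00780 ± 0.000214 in M, 0.00555 ± 0.00104 in ET and 0.00960 ± 0.000855 in Normal in FPKM. With Bcl2l1 in place of Bcl2 it was 0.258 ± 0.00801 in M and 0.252 ± 0.00578 in ET, against 0.0327 ± 0.000624 in Normal. The 2 ratios moved in opposite directions between treated and Normal libraries, and the groups did not overlap in either ratio against Normal. Neither ratio was tested, and the ratio of Bcl2 to Bax rests on Bcl2 levels near the filter of 1 FPKM. Bax and Bak1 together summed to 194 ± 5.15 FPKM in M, 213 ± 6.06 FPKM in ET and 169 ± 4.83 FPKM in Normal.

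Among the BH3-only genes, Bcl2l11 rose most. It encodes Bim (ENSMUSG00000027381, chromosome 2, 128126038 to 128162547), which binds all the main survival proteins and can activate Bax. Bcl2l11 stood at 26.8, 25.9 and 25.3 FPKM in M, 20.8, 21.3 and 18.9 FPKM in ET and 4.32, 4.20 and 4.55 FPKM in Normal. The groups were all apart, in the same order as for Bcl2a1b and Bcl2a1d. Its log2 fold change was 2.66 in M (SE 0.0523, 6.34-fold, adjusted p = 1.86e-13), 2.30 in ET (SE 0.0517, 4.92-fold, adjusted p = 7.22e-13) and 0.37 in M against ET (SE 0.0484, 1.29-fold, adjusted p = 0.000616). The survival genes Bcl2a1b and Bcl2a1d and the death gene Bcl2l11 thus rose side by side, and all 3 were higher in M than in ET.

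Bid, which links death receptors to the mitochondrial route once a caspase has cleaved it (ENSMUSG00000004446, chromosome 6, 120891930 to 120916853), stood at 41.7, 40.6 and 42.1 FPKM in M, 45.7, 43.7 and 43.6 FPKM in ET and 33.0, 32.3 and 30.8 FPKM in Normal. All groups were apart, with ET highest. The log2 fold change was 0.46 in M (SE 0.0396, 1.38-fold, adjusted p = 3.67e-07) and 0.55 in ET (SE 0.0396, 1.46-fold, adjusted p = 6.91e-08), and M against ET was -0.09 with a 95% interval of -0.17 to 0.00 (adjusted p = 0.199). Bcl2l13 overlaps the end of Bid on the opposite strand over 913 bases, at 7.71 to 8.52 FPKM in M, 7.74 to 8.52 FPKM in ET and 8.19 to 9.28 FPKM in Normal.

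Pmaip1, the gene of Noxa, which mainly neutralizes Mcl-1 and A1 (ENSMUSG00000024521), stood at 8.73, 9.36 and 9.0 FPKM in M, 8.11, 8.17 and 9.70 FPKM in ET and 8.12, 6.28 and 6.97 FPKM in Normal. M lay above Normal, and ET overlapped it. The log2 fold change was 0.43 in M (SE 0.101, 1.35-fold, adjusted p = 0.00212) and 0.36 in ET (SE 0.101, 1.28-fold, adjusted p = 0.00678). M against ET was 0.07 with a 95% interval of -0.15 to 0.29 (adjusted p = 0.710). Summed FPKM of the 3 BH3-only genes was 76.5 ± 0.659 in M, 73.3 ± 1.18 in ET and 43.5 ± 1.65 in Normal. Bcl2l11 held 34.0 ± 0.823% of it in M and 27.7 ± 1.47% in ET, against 10.02 ± 0.632% in Normal. Bid held the largest share in every library.

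**Figure D3:**
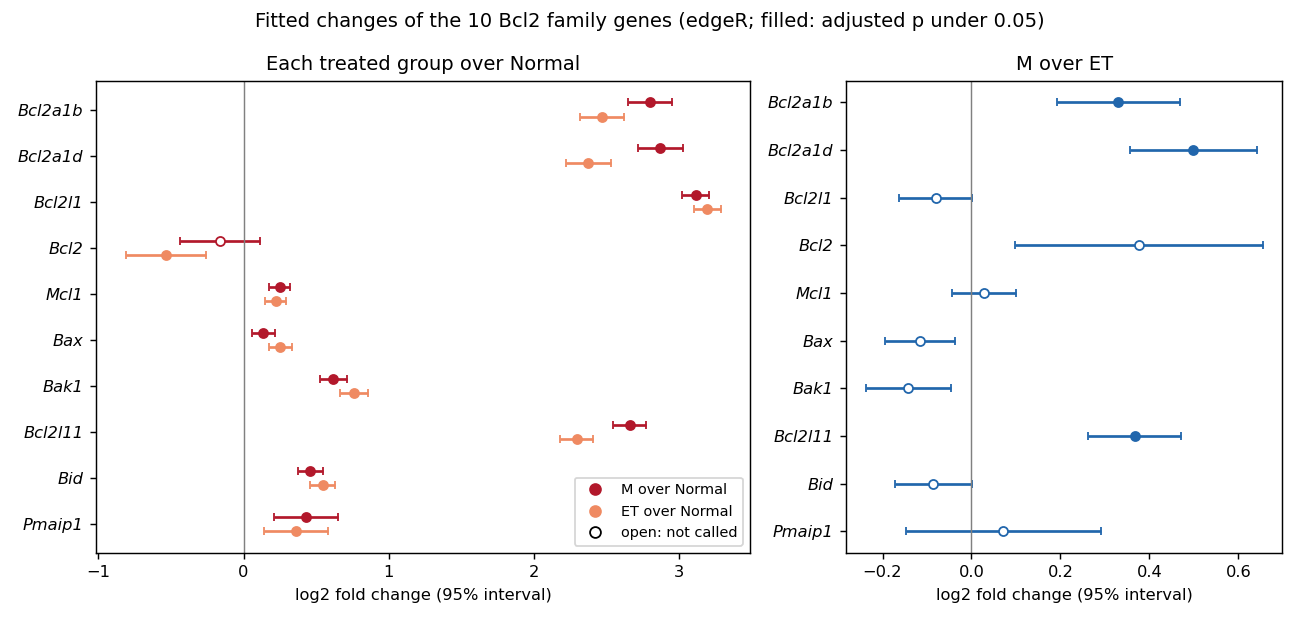
Log2 fold changes of the 10 Bcl2 family genes with 95% intervals from the edgeR fit, for M and ET over Normal at left and for M over ET at right, where the axis is narrower. Filled points have an adjusted p under 0.05. Bcl2a1b, Bcl2a1d, Bcl2l1 and Bcl2l11 lie between 2.30 and 3.20 at left, and at right the filled points are Bcl2a1b, Bcl2a1d and Bcl2l11.

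Ordered by FPKM, Mcl1 came first and Bcl2 last in every group. In M the order was Mcl1, Bax, Bcl2a1d, Bcl2a1b, Bak1, Bid, Bcl2l1, Bcl2l11, Pmaip1 and Bcl2. There the range of Bax overlapped that of Bcl2a1d, and the range of Bcl2a1b overlapped that of Bak1. Within each M library Bcl2a1b stood above Bak1, at 73.2, 70.3 and 65.6 FPKM against 64.8, 69.4 and 65.2 FPKM. Bax and Bcl2a1d changed places between libraries. These orders were not tested. In ET the order was the same except that Bak1 stood above Bcl2a1b, and all neighbours were apart. In Normal the order was Mcl1, Bax, Bak1, Bid, Bcl2a1d, Bcl2a1b, Pmaip1, Bcl2l11, Bcl2l1 and Bcl2, again with all neighbours apart. Bcl2l1 and Bcl2l11 thus stood below Pmaip1 in Normal and above it in both treated groups.

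Other genes of the family were listed with 16 names, of which 15 were in the table and 10 were tested. In M against Normal 5 rose and 2 fell, where 35.5% of all genes tested were higher and 34.5% lower. In ET against Normal 4 rose and 2 fell, against 35% and 35.2% of all genes. In M against ET 1 was higher and none lower by edgeR, against 4.97% and 4.12% of all genes, and the count of 1 stood without ET replicate 3 too, when 9.72% of all genes were higher and 6.13% lower. Counts as small as these, near the shares of all genes, are no result about the list. In M against ET, 1 was lower at an unadjusted p under 0.05 (share of all genes not counted) and 0 were by DESeq2 or limma. Their median log2 fold change was 0.19, 0.17 and -0.03 in these comparisons. Bmf, a BH3-only gene whose protein is held at the cytoskeleton in healthy cells, had the largest fall. Bmf averaged 1.12 ± 0.105 FPKM in M and 1.21 ± 0.0980 FPKM in ET, against 4.31 ± 0.0878 FPKM in Normal, with a log2 fold change of -1.85 in M (adjusted p = 4.85e-09) and -1.75 in ET (adjusted p = 8.20e-09). It ran opposite to Bcl2l11 among the BH3-only genes. Bbc3, the gene of Puma, was not called at 8.30 ± 0.155 FPKM in M, 8.65 ± 0.774 FPKM in ET and 8.19 ± 0.894 FPKM in Normal (adjusted p = 0.326 in M and 0.152 in ET).

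Bcl2l2, the survival gene of Bcl-w, averaged 6.45 ± 0.114 FPKM in M and 7.32 ± 0.562 FPKM in ET, against 4.66 ± 0.198 FPKM in Normal (log2 0.56 and 0.73, adjusted p = 9.42e-06 and 7.39e-07). Bnip3, whose protein marks mitochondria for removal, averaged 22.6 ± 0.177 FPKM in M, 19.3 ± 0.548 FPKM in ET and 9.54 ± 0.658 FPKM in Normal. It rose in M (log2 1.33, adjusted p = 7.91e-10) and in ET (1.09, adjusted p = 5.52e-09), and M was above ET (0.24, adjusted p = 0.0288), a call that was lost when any 1 M library, ET replicate 1 or ET replicate 2 was left out (adjusted p of 0.0808 to 0.107). Its relative Bnip3l rose in M (0.24, adjusted p = 0.00109) and was 0.10 in ET (adjusted p = 0.107). Bcl2l15 rose in both groups (1.73 and 1.74, adjusted p = 2.33e-07 and 2.10e-07) but passed the filter through the treated libraries alone, where it stood at 2.37 to 3.04 FPKM, against 0.751 to 0.867 FPKM in Normal. Its rise is among those counted above for this list and is given as no support for it. Bcl2l12 fell to 1.57 ± 0.275 FPKM in M and 1.63 ± 0.394 FPKM in ET, against 3.75 ± 0.340 FPKM in Normal (-1.16 and -1.11, adjusted p = 0.000111 and 0.000146). Bad, a BH3-only gene controlled by phosphorylation, and Bcl2l13 were called in neither group (adjusted p = 0.125 and 0.980 in M, 0.0571 and 0.861 in ET). The untested genes Bok, Bik, Hrk and Bcl2l14 had at most 23 counts in any library.

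Genes of the mitochondrial death pathway, whose proteins act at the mitochondria or downstream of them, moved by smaller steps than Bcl2l11. Of 15 such genes, all tested, 3 rose and 6 fell in M against Normal (35.5% and 34.5% of all genes), and 5 rose and 8 fell in ET against Normal (35% and 35.2% of all genes), with medians of -0.08 and -0.15. In M against ET edgeR called none (median -0.01), against 4.97% higher and 4.12% lower of all genes. At an unadjusted edgeR p under 0.05, 3 were higher and 2 lower. The share of all genes at that level was not counted, so these counts are no result about the list. DESeq2 called 1 higher, where it called 895 of all 11536 genes higher, and limma called 0. Without ET replicate 3, 2 were higher there, Dnm1l (0.30, adjusted p = 0.000814) and Aifm1 (0.20, adjusted p = 0.0317), where 9.72% of all genes were. Dnm1l encodes a mitochondrial fission enzyme and Aifm1 the apoptosis-inducing factor, and both are named because their calls changed without a library. Aifm1 was also called without ET replicate 1 (0.21, adjusted p = 0.0439). Casp6, an executioner caspase, rose at a low level, to 2.69 ± 0.217 FPKM in M and 2.56 ± 0.221 FPKM in ET, against 1.37 ± 0.182 FPKM in Normal (treated mean 1.01, adjusted p = 1.97e-06). Apaf1, the scaffold of the apoptosome, and Cycs, cytochrome c, rose by 0.47 and 0.35 (treated mean, adjusted p = 5.26e-07 and 2.25e-06). Cycs stood at 59.3 ± 1.30 FPKM in M, 57.6 ± 2.58 FPKM in ET and 48.7 ± 1.23 FPKM in Normal. Casp6, Apaf1 and Cycs are named because their p was among the smallest within the list. These rises do not stand for the list. In the treated mean 4 of its genes were higher and 7 lower (36.8% and 36.8% of all genes). Among the falls were Endog (-0.60, adjusted p = 4.30e-05), named as an example, and Aifm1 (-0.28, adjusted p = 9.54e-05).

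Inhibitor of apoptosis genes, whose proteins restrain caspases or their activation, were listed with 6 names, of which 5 were in the table and tested. In M against Normal 2 rose and 2 fell (35.5% and 34.5% of all genes), and in ET against Normal 1 rose and 3 fell (35% and 35.2% of all genes). In M against ET 2 were higher, against 4.97% of all genes, and none was lower by edgeR (0 also at an unadjusted p under 0.05, by DESeq2 and by limma). Without ET replicate 3 the higher count was 4, against 9.72% of all genes, with Xiap (0.37, adjusted p = 0.00609) and Birc2 (0.34, adjusted p = 0.0131) added. Birc3, the gene of cIAP2 and a known NF-kB target, stood at 22.4, 19.9 and 20.2 FPKM in M, 15.97, 16.6 and 15.98 FPKM in ET and 11.6, 10.1 and 10.5 FPKM in Normal. The groups were all apart, with M highest. Birc3 rose by 1.05 in M (adjusted p = 8.36e-09) and 0.67 in ET (adjusted p = 6.63e-07), and by 0.38 in M against ET (adjusted p = 0.00248). Birc5, survivin, which also serves cell division, fell to 16.5 ± 0.420 FPKM in M and 17.4 ± 0.412 FPKM in ET, against 26.3 ± 0.204 FPKM in Normal (treated mean -0.55, adjusted p = 7.36e-09). Birc6 fell in the treated mean (-0.31, adjusted p = 9.24e-05) and was higher in M than in ET (0.22, adjusted p = 0.0396), a call lost when any 1 M library, ET replicate 1 or ET replicate 2 was left out (adjusted p of 0.0851 to 0.150). Xiap rose by 0.26 in the treated mean (adjusted p = 0.0188), a call lost without Normal replicate 3 (0.21, adjusted p = 0.0758).

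Regulators of the family, among them transcription factors, kinases and ubiquitin enzymes, were listed with 20 genes, of which 19 were tested. In M against Normal 10 rose and 4 fell (35.5% and 34.5% of all genes), and in ET against Normal 11 rose and 4 fell (35% and 35.2% of all genes). In M against ET 4 were higher and 1 lower (4.97% and 4.12% of all genes), and 5 and 1 without ET replicate 3 (9.72% and 6.13% of all genes). With any other library left out, 3 or 4 were higher and 0 or 1 lower. The shares of all genes were then 2.3 to 4.52% higher and 2.12 to 3.99% lower. The medians were 0.13, 0.19 and 0.08. Foxo1, named for this reason alone, passed the filter only through Normal, at 0.977, 0.783 and 0.892 FPKM in M, 0.703, 0.731 and 0.943 FPKM in ET and 1.27, 1.41 and 1.42 FPKM in Normal, and its fall is given as no support for the list. It is among the 4 that fell in M and the 4 that fell in ET. Pim1 and Pim2 encode kinases that phosphorylate Bad. Pim1 averaged 23.4 ± 1.23 FPKM in M, 20.2 ± 1.30 FPKM in ET and 3.32 ± 0.0951 FPKM in Normal (treated mean 2.79, adjusted p = 3.85e-13). Pim2 averaged 14.5 ± 1.27 FPKM in M, 16.3 ± 0.740 FPKM in ET and 3.24 ± 0.327 FPKM in Normal (2.32, adjusted p = 4.41e-11). Stat3, a transcription factor of cytokine signalling, averaged 21.8 ± 0.333 FPKM in M, 18.8 ± 0.509 FPKM in ET and 8.18 ± 0.449 FPKM in Normal (1.39, adjusted p = 4.89e-12).

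Rel and Nfkb1, which encode NF-kB subunits, had the smallest p of the regulators in M against ET. Rel stood at 22.4, 19.9 and 20.5 FPKM in M, 13.4, 14.4 and 15.0 FPKM in ET and 7.98, 8.24 and 7.99 FPKM in Normal, a log2 fold change of 0.56 in M against ET (SE 0.0530, adjusted p = 4.68e-05) and 1.18 in the treated mean against Normal (adjusted p = 2.05e-10). Nfkb1 averaged 28.0 ± 0.311 FPKM in M, 22.9 ± 0.681 FPKM in ET and 17.3 ± 0.457 FPKM in Normal, with a log2 fold change of 0.30 in M against ET (SE 0.0345, adjusted p = 0.000226). Both genes were ordered as Bcl2a1b and Bcl2a1d were, with M highest and Normal lowest. The order was not particular to them. Stat3 and Pim1 had it too and were called in M against ET (0.23 and 0.22, adjusted p = 0.00565 and 0.0383). The Pim1 call was lost when any library except Normal replicate 3 was left out. Rela, named as a further NF-kB subunit gene of the list, did not have this order. It averaged 22.5 ± 0.0284 FPKM in M, 24.3 ± 1.02 FPKM in ET and 22.4 ± 1.60 FPKM in Normal. By edgeR it was called in ET against Normal (0.19, adjusted p = 0.00481). It was not called in M against Normal (0.09, adjusted p = 0.121) or in M against ET (-0.10, adjusted p = 0.255). A link of these genes to the A1 levels was not tested.

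**Figure D4:**
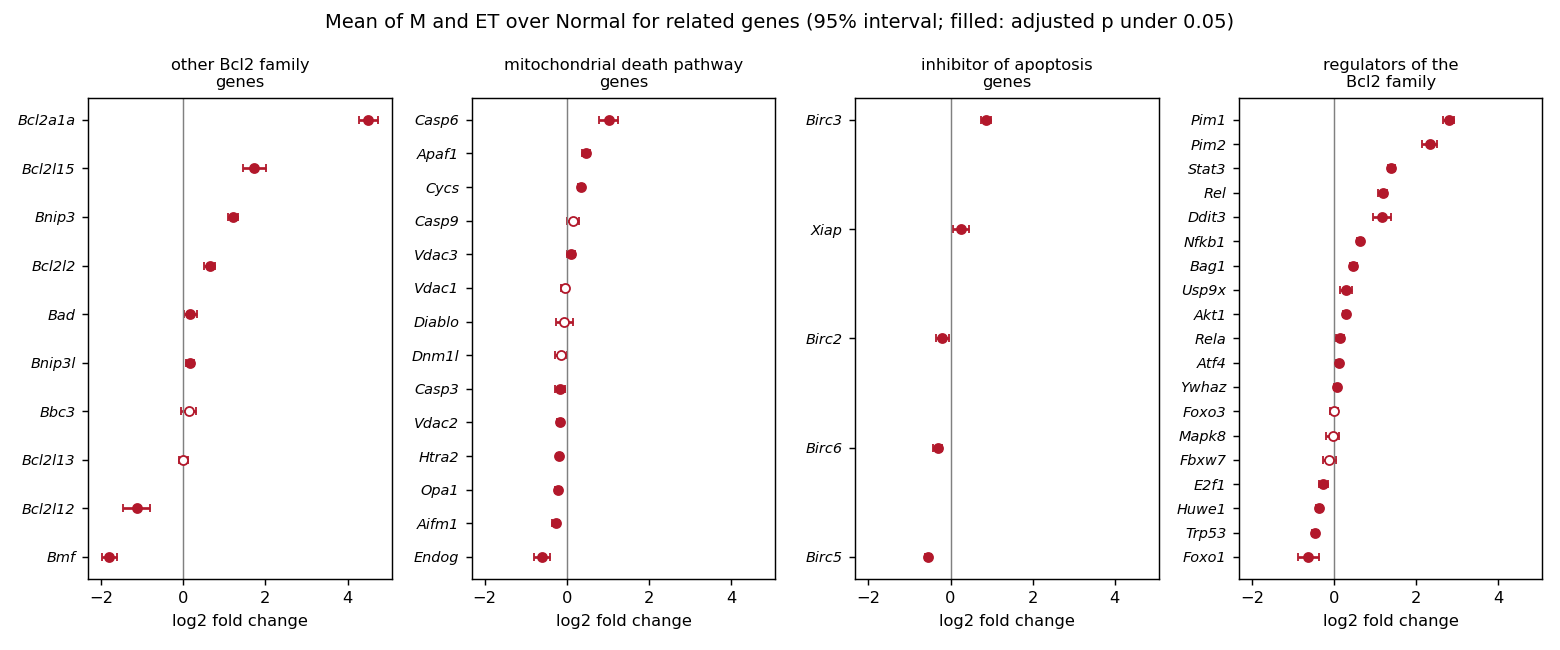
Log2 fold change of the mean of M and ET over Normal, with 95% intervals, for genes of 4 lists: other Bcl2 family genes, mitochondrial death pathway genes, inhibitor of apoptosis genes and regulators. Filled points have an adjusted p under 0.05. Bcl2a1a, Pim1 and Pim2 lie farthest to the right and Bmf farthest to the left, while most death pathway genes lie within 1 log2 unit of 0.

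Among the tested genes outside the 10 members, the 3 whose profile over the 9 libraries came nearest to that of Bcl2a1b were Ddt, a tautomerase related to the cytokine MIF, Tnfrsf23, a mouse decoy receptor of the death ligand TRAIL, and Zfp36, an mRNA decay factor. The root mean square distance of their centred log2 CPM was 0.0798, 0.102 and 0.109. Ddt averaged 106 ± 7.38 FPKM in M, 84.7 ± 8.22 FPKM in ET and 15.2 ± 0.755 FPKM in Normal. For Bcl2l11 the nearest outside the members were Tspan3, a tetraspanin, Zfp36 again, and Akr1b3, aldose reductase, at 0.0591, 0.0962 and 0.101. Tspan3 averaged 131 ± 7.23 FPKM in M, 104 ± 7.00 FPKM in ET and 23.8 ± 0.981 FPKM in Normal, and its log2 fold change was 0.35 in M against ET (adjusted p = 0.00177), close in size to the 0.37 of Bcl2l11.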

How the data were processed

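Poly(A) RNA of 9 RAW264.7 libraries was sequenced as paired ends from dUTP-marked cDNA, per the labels' protocols. Per the submitters' processing notes, cutadapt 1.9, HISAT2 2.2.1, StringTie 2.1.6, DESeq2 and edgeR were used. The deposited counts are whole numbers per gene and library made by the authors. The FPKM values were deposited by the authors beside them, per the file headers. The counting tool, its strand setting and the genome build are not given in the sources used here. Coordinates were those of GENCODE M21 (GRCm38) at both ends for all 10 members, as for 23547 of 26146 genes.

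Each sample was given the table columns that its description names. Counts were tested with edgeR 4.0.16 in R 4.3.3 (TMM, 1 quasi-likelihood fit of 3 groups, two-sided, Benjamini-Hochberg over 11536 genes that reached 1 FPKM in 3 or more libraries, 0.05). The fit was tested on simulated data with known changes. SE is the log2 fold change divided by the root of F. Levels are deposited FPKM, as mean ± SD of 3 libraries. Alternatives used DESeq2 1.42.0, limma 3.58.1 on log2(FPKM + 1), other scalings and filters, 2 groups per fit, summed Bcl2a1 copies, a replicate block and leaving out each library. Promoter windows came from RefSeq (GRCm38.p6) and transcripts from GENCODE M21. Each motif was searched on both strands.

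The members and gene lists were chosen with earlier results of these data known. Named genes were all members, every tested gene of the other Bcl2 family list, and of each further list the 4 called genes with the smallest p in the treated mean and the 2 in M against ET. The 3 genes outside the members nearest in profile to Bcl2a1b and to Bcl2l11 were added. For 1 gene of the mitochondrial death pathway list that this rule takes, the result is not reported here.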

Additional observations from a re-analysis of the deposited data

How the results depend on the processing

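Of 710 refitted member fold changes, 699 kept their direction and their side of the threshold, 2 lost their call (both Bax in M against Normal), 9 gained one and 0 changed sign. Bcl2a1b, Bcl2a1d and Bcl2l11 were called higher in M than in ET in each of 18 alternatives, with adjusted p of at most 0.0383, 0.00428 and 0.00466. In the alternative with summed copies, the summed feature stood for both Bcl2a1b and Bcl2a1d and was counted for each. The count of members called in M against ET was 3, and it was 5 with total counts only, 6 with DESeq2 and 3 to 6 when 1 library was left out. The value of 6 came without ET replicate 3, where 9.72% of all genes were higher and 6.13% lower. Of the 6 by DESeq2, 4 were higher and 2 lower, against 895 and 787 of 11536 genes. With total counts only, 461 of all genes were higher and 552 lower. DESeq2 added Bcl2 (0.37, adjusted p = 0.0395), Bax (-0.12, adjusted p = 0.0220) and Bak1 (-0.15, adjusted p = 0.0208), and total counts added Bax and Bak1. The cause was not tested. Genes called in M against ET numbered 1048, with 1682 by DESeq2, 615 when all genes with a count were tested, and 536 to 1828 when 1 library was left out, the highest without ET replicate 3. Scaling by total counts moved the median of all genes to -0.10 in M against Normal.

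Deviations of same-numbered replicates from their group means had correlations of -0.0681 to 0.0508 between groups. Replicates of unlike number were not compared, so these values cannot decide whether the numbers pair the libraries. With a replicate block, 508 genes were higher and 414 lower in M against ET, and Bak1 was called (-0.14, adjusted p = 0.0394). The lowest count of any member was 378, for Bcl2 in ET replicate 2. The part of depth in the Bcl2 results was not tested.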
